A study of Mus musculus with 30 samples.

Results

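The 35 genes described here carry fatty acids through oxidation: the carnitine shuttle (4 genes), mitochondrial beta-oxidation (11), electron transfer to the respiratory chain (3), peroxisomal beta-oxidation (9), an acyl-CoA synthetase with thioesterases (3), regulators (3), the lipid droplet coat gene Plin2 and the ketone body gene Bdh1. They were taken by symbol from a pathway list, and each matched 1 of the 57133 genes of both count tables. All 35 passed the filter on low counts in every comparison.

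The 30 libraries hold counts of poly-A RNA from whole mouse kidneys. The transgenic (TG) mice are labelled Gsta2-H2BeGFP, libraries are named by number in the column headers, and the series title speaks of proximal tubule cells of males. The promoter is not spelled out in the labels. The surgery groups were all male: TG IRI (6 libraries) and WT IRI (6), taken 4 hours after ischemia-reperfusion injury and labelled NX+IRI, TG NX (3) and WT NX (3). NX is commonly read as nephrectomy, but the labels neither spell it out nor give its time. Kidneys without surgery came from TG females, TG males, WT females and WT males (3 libraries each). Ages were not given in the sources used here. The labels do not say that replicates are separate animals, so p-values measure only the spread between these libraries, which may be technical.

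Proximal tubule cells, the main cell type of the kidney cortex, draw most of their ATP from fatty acids. In mitochondria, long-chain acyl groups enter as carnitine esters and are shortened in repeated rounds, with electrons passed on through the electron transfer flavoprotein. Peroxisomes shorten very long and branched chains, and PPAR-alpha is the nuclear receptor best known for raising the genes of both routes.

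Totals were 59574069 to 91354407 counts per surgery library and 49040915 to 66446450 per library without surgery. EGFP, the reporter of the transgene, had 86 to 1294 counts in the TG libraries and 0 in the WT libraries, except for 206 counts in the library labelled WT IRI replicate 1. Gsta2 was not called between TG and WT in any of 4 comparisons (edgeR adjusted p of 0.673 to 0.999). In WT NX replicate 0, the 10 adipocyte markers summed to 1510 CPM (counts scaled to library size), against 26.3 and 31.9 CPM in the other WT NX libraries and 27.4 to 155 CPM in the other surgery groups. Ucp1, the uncoupling protein of brown fat, stood there at 652 CPM. WT IRI replicate 5 had the highest red cell marker sum of the WT IRI libraries (1300 CPM, the others 110 to 486 CPM). WT IRI replicate 5, WT IRI replicate 4 and WT NX replicate 0 had 16.3%, 15% and 13.6% of counts in mitochondrial-genome genes, against 8.53% to 11.1% in the other surgery libraries. These 4 libraries were singled out after their values had been seen. All 15 proximal tubule markers were above 0 in every library.

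Per kilobase of exon, Slc27a2 led the members in all 8 groups. It imports fatty acids and activates very long chains, and averaged 1050 ± 83.5 CPM per kb in WT males without surgery (SD, n = 3). Acadm, the medium-chain acyl-CoA dehydrogenase (313 ± 17.9), and Ehhadh, the peroxisomal bifunctional enzyme (243 ± 26.9), came next in that group. The lowest levels there were those of Slc25a20 (11.9 ± 1.45), Pdk4 (11.4 ± 5.2) and Acot2 (9.76 ± 0.915), and these neighbours did not differ beyond their spread.

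**Figure D1:**
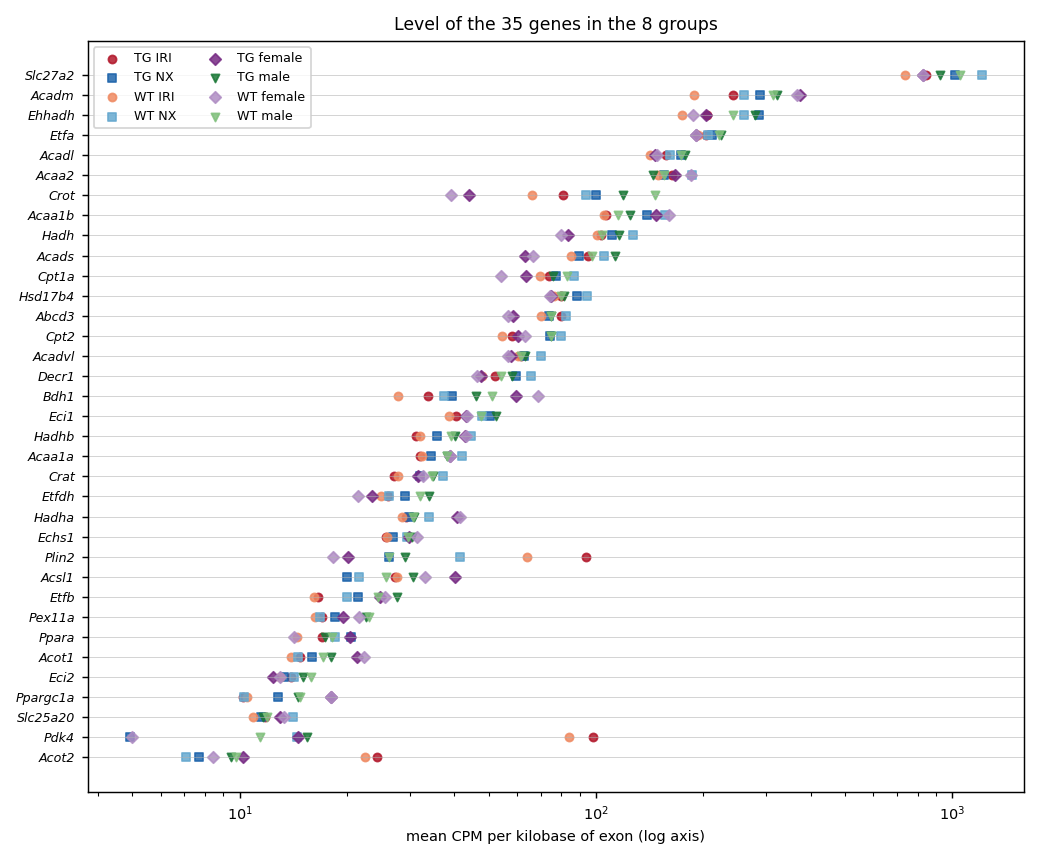
Mean level of each of the 35 genes in the 8 groups, in CPM per kilobase of exon on a log axis. The surgery and no-surgery tables were normalised separately, so a gap between them is not a tested difference. Slc27a2 leads in every group and Acadm follows it in most, while Pdk4 and Acot2 stand higher after IRI than after NX.

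Injury was compared within each genotype, IRI over NX, in a fit of all 18 surgery libraries. In TG kidneys 3 of 35 members rose (Pdk4, Acot2 and Plin2) and 5 fell (Etfb, Ehhadh, Cpt2, Ppargc1a and Slc27a2), beside 16.4% of 19264 tested genes called higher and 13% called lower. In WT kidneys the same 3 rose and 17 fell, beside a background of 16.8% higher and 14.1% lower. Of the genes that fell, 4 did so in both genotypes (Cpt2, Ehhadh, Etfb and Slc27a2). The median log2 change of the members was -0.12 in TG and -0.3 in WT, and over all tested genes it was -0.01 in each. Calls were made at a Benjamini-Hochberg adjusted p under 0.05 in edgeR's quasi-likelihood test, and changes and differences are given as log2 ± SE throughout. Without WT NX replicate 0, 11 members were called lower in WT in place of 17, and the median was -0.21.

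**Figure D2:**
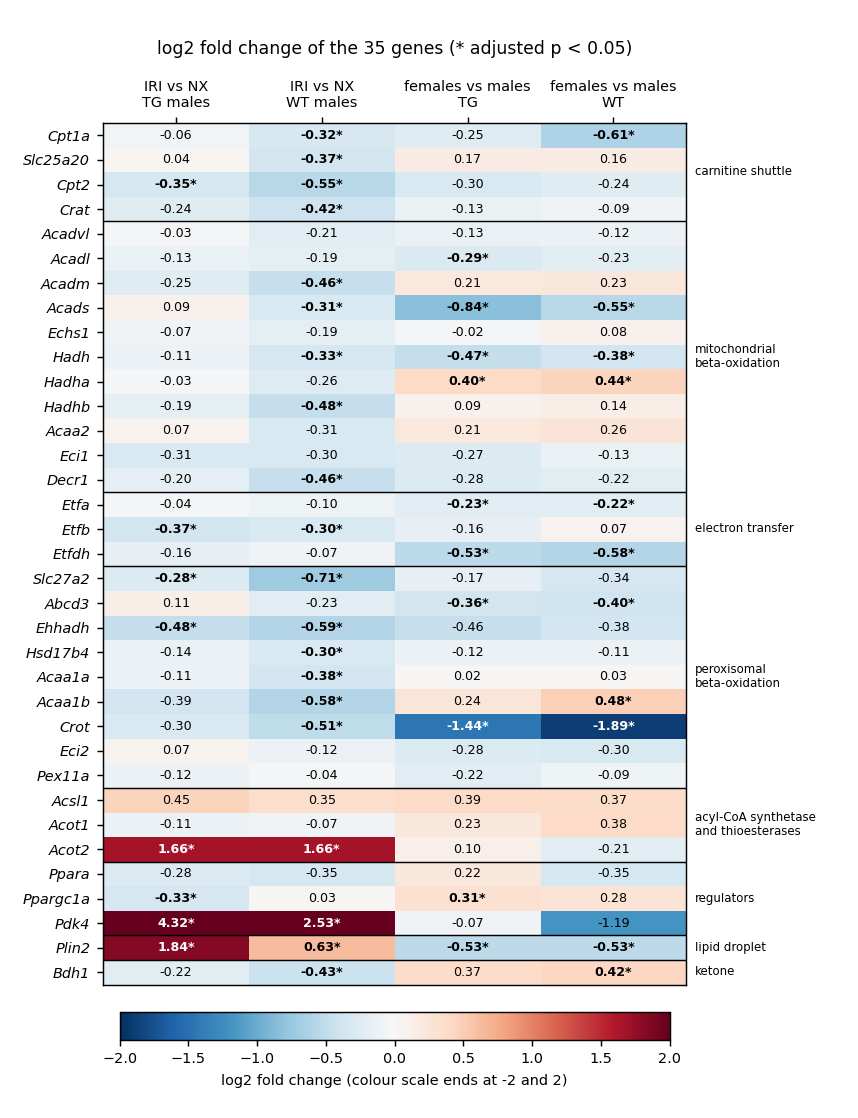
Fold change (log2) of each gene, in rows by compartment, for IRI over NX in TG and in WT and for females over males in TG and in WT; asterisks mark an adjusted p under 0.05 and colours end at 2 in either direction. Pdk4, Acot2 and Plin2 are higher in both injury columns, 5 genes are called lower after injury in TG and 17 in WT, and Crot is the lowest in both sex columns.

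Pdk4 had the largest injury change of the members. The kinase it encodes inactivates pyruvate dehydrogenase and so spares glucose carbon when fat is burned. In TG kidneys it ranged over 232 to 491 CPM (median 346) after IRI, against 16.1, 16.2 and 19.6 CPM after NX. Its WT levels were 175 to 368 CPM (median 312) after IRI, against 106, 17.3 and 29.7 CPM after NX. The groups did not overlap in either genotype, and the highest NX value was that of WT NX replicate 0, the library with adipocyte transcripts. The log2 change was 4.32 ± 0.48 in TG (SE, adjusted p = 1.43e-06) and 2.53 ± 0.43 in WT (adjusted p = 0.000175), and 3.66 ± 0.35 in WT without that library.

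Acot2, a mitochondrial thioesterase that frees fatty acids from CoA, rose in both genotypes. After IRI it ranged over 41.7 to 72.5 CPM (median 51) in TG kidneys, against 16, 16 and 18.6 CPM after NX. The WT range was 41.4 to 66.7 CPM (median 46.1) after IRI, against 17.3, 14.1 and 15.4 CPM after NX. Every IRI library lay above every NX library, with a log2 change of 1.66 ± 0.19 in TG (adjusted p = 1.99e-06) and 1.66 ± 0.19 in WT (adjusted p = 2.06e-06). Its cytosolic paralog Acot1 changed by -0.11 ± 0.15 in TG and -0.07 ± 0.15 in WT, neither called. Reads shared by the paralogs may have been split or dropped, since the handling of multiply mapped reads was not given in the sources used here.

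Plin2 coats lipid droplets and is a common marker of stored neutral fat. In TG kidneys it ranged over 285 to 406 CPM (median 318) after IRI, against 99.1, 112 and 64.1 CPM after NX. WT kidneys ranged over 137 to 306 CPM (median 224) after IRI, against 197, 118 and 122 CPM after NX. The groups were apart in TG and overlapped in WT, where WT NX replicate 0 was again the highest NX library. The log2 change was 1.84 ± 0.24 in TG (adjusted p = 9.97e-06) and 0.63 ± 0.23 in WT (adjusted p = 0.0402). The WT call ended without any 1 of WT IRI replicates 1, 2 and 3 or WT NX replicates 1 and 2, with changes of 0.52 to 0.91 over the 9 libraries left out in turn. Without WT NX replicate 0 it was 0.91 ± 0.24 (adjusted p = 0.00845).

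**Figure D3:**
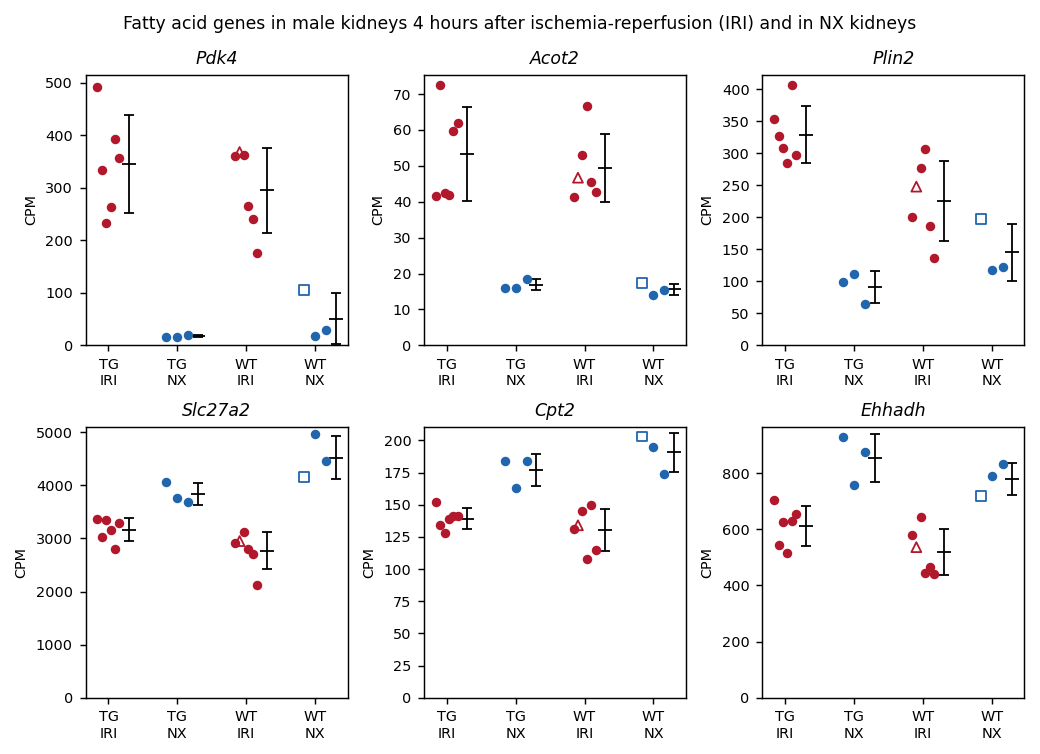
Level (CPM) of 6 genes in each surgery library, IRI left of NX, with the group mean and SD as bars. The open square is WT NX replicate 0, with adipocyte transcripts, and the open triangle is the library labelled WT IRI replicate 1, with EGFP counts. Pdk4 and Acot2 lie higher after IRI with no overlap, Plin2 does so in TG, and Slc27a2, Cpt2 and Ehhadh lie lower after IRI with no overlap in either genotype.

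The 250 bases before the start of the 3 genes that rose are shown because these genes moved together, with any match to 6 motifs in capitals (RefSeq, GRCm38.p6). They lie at chr6:5496279-5496528 (minus strand), chr12:83987611-83987860 (plus strand) and chr4:86670060-86670309 (minus strand).
Pdk4: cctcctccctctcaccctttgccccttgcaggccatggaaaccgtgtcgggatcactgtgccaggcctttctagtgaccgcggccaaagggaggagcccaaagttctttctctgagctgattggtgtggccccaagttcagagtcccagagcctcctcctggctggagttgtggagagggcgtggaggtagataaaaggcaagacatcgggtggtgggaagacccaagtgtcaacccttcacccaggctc
Acot2: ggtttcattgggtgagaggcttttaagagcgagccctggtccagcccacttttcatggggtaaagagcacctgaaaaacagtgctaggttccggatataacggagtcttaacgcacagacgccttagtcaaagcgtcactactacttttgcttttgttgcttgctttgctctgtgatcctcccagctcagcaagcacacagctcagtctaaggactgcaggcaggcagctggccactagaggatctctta
Plin2: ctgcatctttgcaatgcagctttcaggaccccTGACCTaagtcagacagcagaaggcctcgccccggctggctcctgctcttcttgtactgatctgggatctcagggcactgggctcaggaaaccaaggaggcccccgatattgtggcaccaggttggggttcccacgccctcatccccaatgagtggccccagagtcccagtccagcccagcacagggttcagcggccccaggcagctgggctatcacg
In the deposited tables, which use GRCm39, Pdk4 spans chr6:5483351-5496309, Acot2 chr12:84034635-84040647 and Plin2 chr4:86566623-86588297. The motifs were searched on both strands of 32851 RefSeq promoter windows of this length. AGGTCA, the nuclear receptor site, was in 14% of them, and it is contained in both AGGTCANAGGTCA, the repeat bound by PPAR with RXR (0.0335%), and TCAAGGTCA, the site of oestrogen-related receptors (0.387%). TGANTCA, bound by AP-1, was in 6.75%, TGACGTCA, the cyclic AMP response site, in 1.55%, and ACGTG, the hypoxia response core, in 16.6%. Among the 3 windows shown, the only match was a nuclear receptor site in that of Plin2, 218 bases before the start. Of the 31 members with a window, 6 held AGGTCA (Acadm, Acadvl, Cpt1a, Echs1, Plin2 and Slc27a2), 3 held ACGTG (Acadvl, Ppargc1a and Slc27a2) and 0 held the other 4 motifs. A match describes the letters in the window and no more. Crat, Decr1, Acaa2 and Hsd17b4 had no window.

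In the carnitine shuttle, 1 of 4 genes fell in TG kidneys and 4 of 4 fell in WT kidneys. Cpt2, the inner membrane transferase that returns acyl groups to CoA, ranged over 128 to 152 CPM (median 140) after IRI in TG kidneys, against 184, 163 and 184 CPM after NX. In WT kidneys it ranged over 108 to 150 CPM (median 132) after IRI, against 203, 195 and 174 CPM after NX. The groups were apart in both genotypes, with log2 changes of -0.35 ± 0.09 in TG (adjusted p = 0.00823) and -0.55 ± 0.09 in WT (adjusted p = 0.000198). Crat, which exchanges short acyl groups with carnitine, ranged over 139 to 156 CPM (median 146) after IRI in TG kidneys, against 179, 170 and 168 CPM after NX. The WT range was 122 to 174 CPM (median 150) after IRI, against 231, 193 and 179 CPM after NX. IRI and NX did not overlap in either genotype, and the change of -0.24 ± 0.09 was not called in TG (adjusted p = 0.0568), while that of -0.42 ± 0.09 was called in WT (adjusted p = 0.00157). Cpt1a, the rate-limiting entry enzyme, changed by -0.32 ± 0.08 in WT, a call that ended without WT NX replicate 1 or 2. Slc25a20, the acylcarnitine carrier, changed by -0.37 ± 0.13 in WT and by -0.13 ± 0.12 without WT NX replicate 0, where it was highest at 88.6 CPM.

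Of the 11 mitochondrial beta-oxidation genes, 0 were called in TG kidneys by edgeR and 0 by DESeq2. An unadjusted p under 0.05 was reached by 1 in TG, beside 39% of all genes. In WT kidneys 5 fell (Decr1, Hadh, Acads, Hadhb and Acadm). Decr1, which prepares unsaturated chains for oxidation, ranged over 186 to 220 CPM (median 202) after IRI in TG kidneys, against 218, 263 and 215 CPM after NX. WT kidneys ranged over 157 to 207 CPM (median 188) after IRI, against 269, 252 and 246 CPM after NX. The groups overlapped in TG (-0.2 ± 0.09, adjusted p = 0.0854) and were apart in WT (-0.46 ± 0.08, adjusted p = 0.000421). Hadh, the dehydrogenase of medium and short hydroxyacyl chains, ranged over 484 to 560 CPM (median 507) after IRI in TG kidneys, against 553, 574 and 537 CPM after NX. Its WT levels were 458 to 519 CPM (median 514) after IRI, against 615, 657 and 622 CPM after NX. It too overlapped in TG (-0.11 ± 0.07, adjusted p = 0.226) and not in WT (-0.33 ± 0.07, adjusted p = 0.000801). Acads, for short chains, changed by -0.31 ± 0.07 in WT, and Acadm by -0.46 ± 0.15, a call that ended without WT NX replicate 0 or 2. All 11 estimates were below 0 in WT and 9 of 11 in TG.

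Part of the WT difference moved with WT NX replicate 0. That library held the highest value of the surgery table for Hadhb (430 CPM) and Hadha (397 CPM), the subunits of the trifunctional protein of long-chain oxidation. Without it, Hadhb changed by -0.09 ± 0.08 in place of -0.48 ± 0.14. Besides Hadhb, the calls of Slc25a20, Acadm, Crot, Etfb and Bdh1 ended. Slc27a2 (-0.76 ± 0.11), Ehhadh (-0.64 ± 0.14) and Cpt2 (-0.49 ± 0.11) were among the 11 that were still called. Acsl1, a long-chain acyl-CoA synthetase, changed by 0.35 ± 0.18 with all libraries (adjusted p = 0.151) and rose by 0.79 ± 0.14 without that library (adjusted p = 0.000285), in which it was 344 CPM. In TG kidneys Acsl1 averaged 286 ± 44.2 CPM after IRI and 210 ± 27.8 CPM after NX (SD, n = 6 and 3), a change of 0.45 ± 0.18 that edgeR did not call (adjusted p = 0.0695) and DESeq2 did (adjusted p = 0.0441). Without the library labelled WT IRI replicate 1, 2 members rose and 16 fell in WT. Leaving out WT NX replicate 0 and WT IRI replicates 1 and 5 together gave 4 higher and 11 lower, and 0 called in the interaction or between TG and WT after IRI or NX by edgeR. Without the 3 libraries of highest mitochondrial-genome share (WT NX replicate 0 and WT IRI replicates 4 and 5), 4 were again higher and 11 lower, and the median of the members was -0.17 in place of -0.3. The part of that share in the member results was not tested beyond this. The share of all genes called was not taken for any of these fits, so their counts stand without a background.

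**Figure D4:**
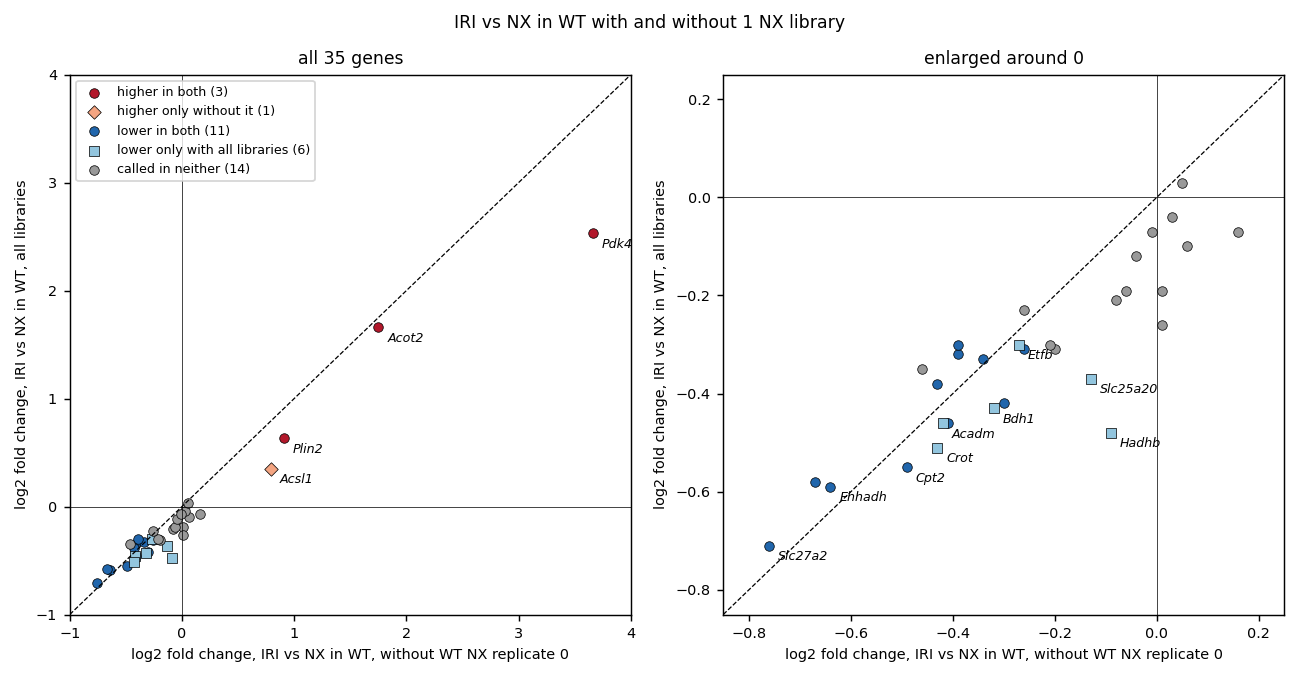
Fold change (log2) of the 35 genes for IRI over NX in WT kidneys without WT NX replicate 0 (horizontal) and with all libraries (vertical), the right panel enlarged around 0; colours give the call in each fit. Of the 17 genes lower with all libraries, 11 are lower in both fits, and Acsl1 is called higher without that library alone.

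Of the 3 electron transfer genes, 1 fell in each genotype. Etfb, a subunit of the electron transfer flavoprotein, ranged over 16.9 to 22.8 CPM (median 18.8) after IRI in TG kidneys, against 26.4, 25.8 and 22.9 CPM after NX. In WT kidneys it ranged over 17.6 to 20.3 CPM (median 19) after IRI, against 24, 23 and 22.9 CPM after NX. The groups did not overlap, though the gap in TG was narrow, and the changes were -0.37 ± 0.09 in TG (adjusted p = 0.00428) and -0.3 ± 0.09 in WT (adjusted p = 0.0163). The WT call ended without any 1 of WT NX replicates 0, 1 and 2. Etfa, the other subunit, and Etfdh, which passes the electrons to ubiquinone, were not called in either genotype.

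Of the 9 peroxisomal genes, 2 fell in TG kidneys and 6 fell in WT kidneys. Slc27a2 ranged over 2810 to 3360 CPM (median 3220) after IRI in TG kidneys, against 4070, 3770 and 3680 CPM after NX. WT kidneys ranged over 2120 to 3130 CPM (median 2860) after IRI, against 4160, 4960 and 4450 CPM after NX. No IRI library reached an NX library in either genotype. The change was -0.28 ± 0.1 in TG (adjusted p = 0.0398) and -0.71 ± 0.1 in WT (adjusted p = 2.12e-05). The TG call ended without any 1 of TG IRI replicates 1, 3 and 4 or TG NX replicates 0, 1 and 2.

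Ehhadh, a classical PPAR-alpha target of mouse liver, ranged over 516 to 704 CPM (median 626) after IRI in TG kidneys, against 927, 759 and 874 CPM after NX. Its WT levels were 439 to 643 CPM (median 501) after IRI, against 717, 790 and 831 CPM after NX. The groups were apart, with changes of -0.48 ± 0.12 in TG (adjusted p = 0.00463) and -0.59 ± 0.12 in WT (adjusted p = 0.000877). Also called lower in WT were the thiolases Acaa1a (-0.38 ± 0.09) and Acaa1b (-0.58 ± 0.17) and the bifunctional enzyme Hsd17b4 (-0.3 ± 0.08), all 3 calls ending without WT NX replicate 1. Crot, which turns medium chains into carnitine esters for export, changed by -0.51 ± 0.16, a call that ended without WT NX replicate 0 or 2. Acaa1a and Acaa1b are close paralogs whose reads may have been shared. Abcd3, Eci2 and Pex11a were not called in either genotype.

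Some members share exon bases with a gene on the opposite strand, and the use of strand in counting was not given in the sources used here. At most, Myd88 reached 12% of the level of Acaa1a in a library, Dolpp1 10.4% of Crat, Dvl2 8.94% of Acadvl and Paox 4.58% of Echs1. The remaining overlapping genes stayed at or below 1.75%.

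Ppargc1a, the coactivator of mitochondrial biogenesis, ranged over 55.3 to 75.2 CPM (median 67.1) after IRI in TG kidneys, against 78.9, 82.8 and 90.4 CPM after NX. The groups were apart, and it changed by -0.33 ± 0.1 (adjusted p = 0.0164), a call that ended without TG NX replicate 2. In WT it changed by 0.03 ± 0.1 (adjusted p = 0.85). Ppara, the gene of PPAR-alpha itself, changed by -0.28 ± 0.27 in TG and -0.35 ± 0.27 in WT, neither called. Bdh1, the mitochondrial enzyme that interconverts the ketone bodies, ranged over 112 to 152 CPM (median 134) after IRI in TG kidneys, against 184, 107 and 170 CPM after NX. The WT range was 80.7 to 126 CPM (median 113) after IRI, against 166, 124 and 148 CPM after NX. The groups overlapped in both genotypes, with changes of -0.22 ± 0.15 in TG (adjusted p = 0.302) and -0.43 ± 0.15 in WT (adjusted p = 0.0393). The WT call ended without any 1 of WT IRI replicates 3, 4 and 5 or WT NX replicates 0 and 2.

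Summed over all 35 genes, TG kidneys held 11100 to 12600 CPM after IRI, against 12300 to 13200 CPM after NX, and WT kidneys held 9110 to 11600 CPM after IRI, against 13300 to 14000 CPM after NX. Slc27a2 made up a large part of these sums. Without it, TG kidneys held 7990 to 9270 CPM after IRI and 8480 to 9110 CPM after NX, which overlapped. WT kidneys then held 7000 to 8480 CPM after IRI and 8730 to 9880 CPM after NX. Of the 15 proximal tubule markers, 0 rose and 3 fell in TG (median -0.15) and 0 rose and 6 fell in WT (median -0.32). Their sum was 33700 to 40800 CPM in TG IRI, 38700 to 43700 CPM in TG NX, 33600 to 38700 CPM in WT IRI and 41900 to 52800 CPM in WT NX. In whole kidney, fewer cells of a type and less RNA per cell cannot be told apart. Red cell markers were called higher for 4 of 5 in TG and 5 of 5 in WT, leukocyte markers for 3 of 7 in each. Endothelium markers were called higher for 1 of 5 in TG and 2 of 5 in WT, glomerulus markers for 0 of 4 in TG and 2 of 4 in WT, and thick limb and distal tubule markers for 0 of 6 in TG and 2 of 6 in WT, with 1 of 6 lower in each. Red cell sums were 28.6 to 148 CPM in TG IRI, 3.64 to 18.7 CPM in TG NX, 110 to 1300 CPM in WT IRI and 35.6 to 119 CPM in WT NX. Adipocyte markers were called lower for 0 of 10 in TG and 5 of 10 in WT. Their sum was 57 to 120 CPM in WT IRI, against 1510 CPM in WT NX replicate 0 and 26.3 and 31.9 CPM in the other WT NX libraries. The lower WT estimates thus rest on WT NX replicate 0. In TG the sum was 53 to 155 CPM after IRI and 27.4 to 57.2 CPM after NX. The part of these cell types in the member results was not tested.

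Other genes of the same pathways were read from lists that hold none of the 35. WT values include WT NX replicate 0. The share of all genes to set beside the injury count of each list was 16.4% higher and 13% lower in TG. In WT it was 16.8% higher and 14.1% lower. Of 21 other peroxisomal genes, 1 rose and 8 fell in TG and 0 rose and 12 fell in WT (medians -0.23 and -0.38). Decr2, a peroxisomal reductase, changed by -0.4 ± 0.08 in TG and -0.57 ± 0.08 in WT. Catalase (Cat) changed by -0.5 ± 0.08 and the peroxisomal thioesterase Acot4 by -0.62 ± 0.11 in WT, and Pex5, the import receptor of peroxisomes, rose by 0.33 ± 0.07 in TG. Of 16 other mitochondrial genes, 1 rose and 3 fell in TG and 1 rose and 8 fell in WT. Acad11, an acyl-CoA dehydrogenase, changed by -0.45 ± 0.08 in TG and -0.63 ± 0.08 in WT, and the thioesterase Acot9 rose by 0.71 ± 0.12 in TG and 0.6 ± 0.12 in WT.

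Of 7 ketone body genes, 1 rose and 1 fell in TG (14.3% each, beside 16.4% and 13% of all genes). In WT 2 rose and 1 fell (28.6% and 14.3%, beside 16.8% and 14.1%). With 7 genes these counts are near the shares over all genes. Slc16a1, a transporter of lactate and ketone bodies, averaged 110 ± 22.3 CPM in TG IRI and 31.8 ± 7.54 CPM in TG NX (1.79 ± 0.2, adjusted p = 2.02e-06). It averaged 103 ± 20.7 CPM in WT IRI and 34.5 ± 2.62 CPM in WT NX (1.57 ± 0.2, adjusted p = 9.25e-06; SD, n = 6 and 3). Slc16a1 thus rose in both genotypes, while Bdh2, a cytosolic dehydrogenase, fell in both (-0.21 ± 0.06 in TG and -0.25 ± 0.06 in WT).

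Genes that set the activity of pyruvate dehydrogenase changed beside Pdk4. Of 5, 1 rose and 2 fell in TG and 1 rose and 3 fell in WT. Pdp2, a phosphatase that reactivates the complex, averaged 28.2 ± 2.59 CPM in TG IRI and 98.5 ± 19.6 CPM in TG NX (-1.81 ± 0.13), and 36.5 ± 6.27 CPM in WT IRI and 116 ± 10.5 CPM in WT NX (-1.66 ± 0.13). Its sister phosphatase Pdp1 went the other way, by 1.53 ± 0.24 in TG and 1.64 ± 0.24 in WT.

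Of 12 other PPAR-alpha targets, 4 rose and 2 fell in TG and 3 rose and 5 fell in WT. Angptl4, a secreted lipase inhibitor, rose by 1.9 ± 0.28 in TG and 1.27 ± 0.27 in WT, and Txnip, which binds thioredoxin, by 1.15 ± 0.17 and 1.21 ± 0.17. Fgf21, a fasting hormone of liver, was called higher at very low counts: 4 to 53 counts in WT IRI libraries, against 0 in the 3 WT NX libraries. It was at least 25.6-fold higher if those 3 libraries together are given a floor of 3 counts. EGFP counts were even in every library that held them, so a pair may have been counted once per read. The bound would then be lower. Of 15 other regulators, 3 rose and 1 fell in TG and 3 rose and 4 fell in WT. Those with the smallest p-values rose: the corepressor Nrip1 by 1.41 ± 0.23 in TG and 1.56 ± 0.24 in WT, the deacetylase Sirt1 by 1.31 ± 0.15 and 0.91 ± 0.15, and the receptor Ppard by 0.86 ± 0.16 and 0.91 ± 0.16.

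Of 13 uptake and activation genes, 1 rose and 0 fell in TG and 2 rose and 2 fell in WT. Acsl4, a synthetase for polyunsaturated chains, rose by 0.81 ± 0.12 in TG and 0.7 ± 0.12 in WT, and the fatty acid receptor Cd36 changed by -0.75 ± 0.17 in WT. Of 14 other droplet and lipolysis genes, 3 rose and 0 fell in TG and 1 rose and 3 fell in WT. Estimates were above 0 for 12 of the 14 in TG and below 0 for 12 of the 14 in WT. The genes of this paragraph were not refitted without WT NX replicate 0, the library with adipocyte transcripts, and its part in the WT values was not tested. Hilpda, a hypoxia-inducible inhibitor of droplet lipolysis, rose by 2.32 ± 0.28 in TG and 1.9 ± 0.27 in WT. Of the triglyceride synthesis genes, Dgat1 rose by 0.38 ± 0.11 in TG, and Dgat2 changed by -0.39 ± 0.09 in WT.

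Whether TG and WT kidneys differed was tested for the members in 6 comparisons, and edgeR called 0 members in each. Shares of all genes are from edgeR, and none was taken for DESeq2, so its calls stand without a background. In the interaction of genotype with injury, 0 of 35 were called beside 0% of all genes. An unadjusted p under 0.05 was reached by 9 members, beside 9.59% of all genes, and DESeq2 called 2. These were Acads (0.39 ± 0.1 in edgeR, adjusted p = 0.376, and 0.0488 in DESeq2) and Plin2 (1.21 ± 0.31, adjusted p = 0.376, and 0.0435 in DESeq2). Pdk4 had an interaction of 1.78 ± 0.54 (adjusted p = 0.398), which was 0.66 ± 0.36 without WT NX replicate 0. The unequal numbers of members called in TG and WT were therefore not shown by edgeR to be a difference between the genotypes for any member.

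After IRI, 0 of 35 were called between TG and WT (edgeR, 0.0701% of 17111 genes). An unadjusted p under 0.05 was reached by 7 members, each higher in TG, beside 14.1% of all genes. DESeq2 called 1. That gene was Plin2, at 329 ± 44.5 CPM in TG IRI and 226 ± 62.7 CPM in WT IRI (SD, n = 6 each; 0.54 ± 0.16, edgeR adjusted p = 0.183, DESeq2 adjusted p = 0.0337). Estimates were above 0 for 29 of 35 members, with a median of 0.08. After NX, 0 of 35 were called (edgeR, 0.0117% of 17100 genes). There, 5 had an unadjusted p under 0.05, beside 6.77% of all genes, and 0 were called by DESeq2. Pdk4 differed by -1.56 ± 0.55 there and by -0.45 ± 0.21 without WT NX replicate 0.

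Without surgery, 0 of 35 were called between TG and WT females (edgeR, 0.0418% of 19126 genes). Of the 35, 3 had an unadjusted p under 0.05, beside 9.09% of all genes, and 1 was called by DESeq2. This was Ppara, at 78.2 ± 13.8 CPM in TG females and 54.6 ± 4.75 CPM in WT females (SD, n = 3 each; 0.52 ± 0.12, edgeR adjusted p = 0.185, DESeq2 adjusted p = 0.00903). Between TG and WT males 0 were called (edgeR, 0.00523% of genes). Here 1 had an unadjusted p under 0.05, beside 5.22% of all genes, and 0 were called by DESeq2. The interaction of genotype with sex gave 0 members (0.00523% of genes). In it, 3 had an unadjusted p under 0.05, beside 8.58% of all genes, and 0 were called by DESeq2. A missed threshold does not show that the genotypes are alike.

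Females were compared with males among kidneys without surgery. In TG, 2 of 35 members were higher in females (Hadha and Ppargc1a) and 8 lower, beside 9.87% of 19126 genes higher and 11.3% lower. In WT, 3 were higher (Hadha, Acaa1b and Bdh1) and 8 lower, beside 10.1% higher and 11.3% lower. In both genotypes 7 were lower: Crot, Etfdh, Plin2, Acads, Abcd3, Hadh and Etfa. The TG and WT comparisons share no library. DESeq2 called 6 further members in TG (Acsl1 and Bdh1 higher, Cpt2, Decr1, Eci2 and Ehhadh lower) and 4 in WT (Eci2, Ehhadh, Ppara and Slc27a2, all lower), at adjusted p of 0.0135 to 0.0497. The share of all genes called by DESeq2 was not taken, so these further calls cannot be set against it. The median of the members was -0.13 in TG and -0.13 in WT, and over all tested genes 0.02 and 0.03.

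Crot had the largest sex difference among the members called. It had 280, 210 and 229 CPM in TG females, against 742, 596 and 619 CPM in TG males. WT females had 220, 189 and 234 CPM, against 812, 706 and 865 CPM in WT males. Every female library lay below every male library, with a log2 difference of -1.44 ± 0.13 in TG (adjusted p = 7.42e-06) and -1.89 ± 0.13 in WT (adjusted p = 8.92e-07). The gene spans chr5:9016033-9047324 (GRCm39). Abcd3, a peroxisomal membrane transporter of acyl-CoA, had 392, 360 and 407 CPM in TG females, against 541, 468 and 474 CPM in TG males. It had 377, 364 and 383 CPM in WT females, against 530, 467 and 484 CPM in WT males. The sexes did not overlap, and the differences were -0.36 ± 0.08 in TG (adjusted p = 0.00518) and -0.4 ± 0.08 in WT (adjusted p = 0.00238). Acaa1b was higher in WT females (315 ± 23.8 CPM, against 225 ± 34.9 CPM in WT males; 0.48 ± 0.14, adjusted p = 0.027), a call that ended when WT female replicate 0 or male replicate 2 was left out.

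Of the 3 electron transfer genes, 2 were lower in females of each genotype. Etfdh had 179, 170 and 180 CPM in TG females, against 273, 253 and 240 CPM in TG males. It had 159, 160 and 165 CPM in WT females, against 248, 240 and 235 CPM in WT males. The sexes were apart, with differences of -0.53 ± 0.06 in TG (adjusted p = 6.23e-05) and -0.58 ± 0.06 in WT (adjusted p = 2.82e-05). Etfa had 359, 347 and 344 CPM in TG females, against 436, 394 and 402 CPM in TG males. It had 371, 327 and 352 CPM in WT females, against 405, 395 and 423 CPM in WT males. The sexes were again apart, and the differences of -0.23 ± 0.07 in TG (adjusted p = 0.0239) and -0.22 ± 0.07 in WT (adjusted p = 0.0295) were small. The TG call ended without TG female replicate 1 or 2 or TG male replicate 0, and the WT call ended when female replicate 1 or 2 or male replicate 0 or 2 was left out.

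In mitochondrial beta-oxidation, females had more Hadha and less Acads and Hadh. Hadha had 365, 335 and 365 CPM in TG females, against 272, 289 and 248 CPM in TG males. It had 375, 349 and 363 CPM in WT females, against 257, 262 and 283 CPM in WT males. The sexes did not overlap, and Hadha was higher by 0.4 ± 0.07 in TG (adjusted p = 0.00158) and 0.44 ± 0.07 in WT (adjusted p = 0.000734). Acads had 148, 136 and 146 CPM in TG females, against 284, 243 and 245 CPM in TG males. It had 168, 145 and 139 CPM in WT females, against 242, 235 and 186 CPM in WT males. There was no overlap here either, with differences of -0.84 ± 0.1 in TG (adjusted p = 0.000133) and -0.55 ± 0.1 in WT (adjusted p = 0.00231). Hadh differed by -0.47 ± 0.07 and -0.38 ± 0.07 in TG and WT, and Acadl, the long-chain dehydrogenase, by -0.29 ± 0.09 in TG, a call that ended without TG female replicate 0 or 1 or TG male replicate 0 or 1. Hadhb, the partner of Hadha, differed by 0.09 ± 0.07 in TG and 0.14 ± 0.07 in WT, neither called, and whether it differs from Hadha in its sex effect was not tested.

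**Figure D5:**
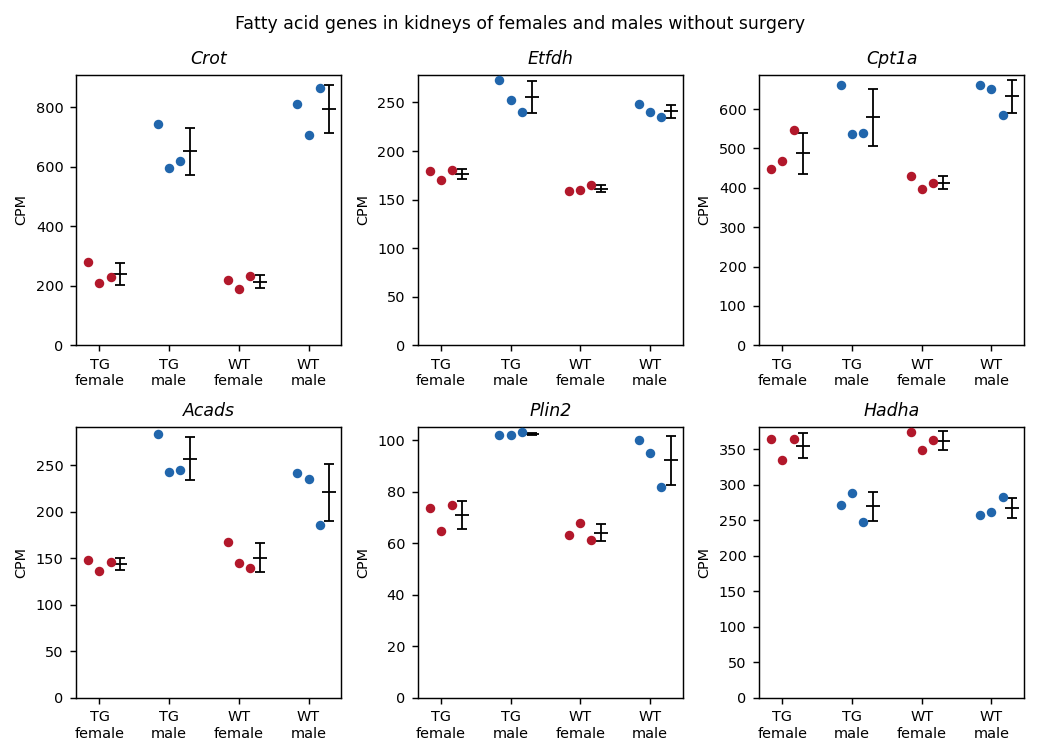
Level (CPM) of 6 genes in each library without surgery, females left of males within each genotype, with the group mean and SD as bars. Crot, Etfdh, Acads and Plin2 lie lower in females and Hadha lies higher, with no overlap of the sexes in either genotype, while Cpt1a is apart in WT and overlaps in TG.

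Hadha and Hadhb lie head to head on mouse chromosome 5, at chr5:30323302-30360160 (minus strand) and chr5:30360246-30389591 (plus strand) in GRCm39. In RefSeq, 272 bases lie between their starts, so most of the stretch before one gene is also the stretch before the other. It is shown because the paired genes were measured at unequal sex differences: the 250 bases before the Hadhb start (chr5:30155003-30155252, plus strand, GRCm38.p6), with the 228 bases also in the Hadha window in capitals.
Hadhb: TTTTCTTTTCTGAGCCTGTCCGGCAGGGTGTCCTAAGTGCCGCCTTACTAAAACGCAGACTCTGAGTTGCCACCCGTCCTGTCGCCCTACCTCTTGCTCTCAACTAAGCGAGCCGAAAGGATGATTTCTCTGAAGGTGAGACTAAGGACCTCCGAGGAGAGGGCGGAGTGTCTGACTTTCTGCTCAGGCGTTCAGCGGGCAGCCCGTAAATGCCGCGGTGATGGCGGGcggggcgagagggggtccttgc
None of the 6 motifs was matched in it.

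In the carnitine shuttle, Cpt1a had 448, 468 and 547 CPM in TG females, against 661, 537 and 538 CPM in TG males. It had 430, 397 and 412 CPM in WT females, against 660, 652 and 584 CPM in WT males. The sexes overlapped in TG (-0.25 ± 0.1, adjusted p = 0.0944) and were apart in WT (-0.61 ± 0.1, adjusted p = 0.000692), and the interaction of 0.37 ± 0.14 was not called (adjusted p = 0.486). The other 3 shuttle genes were not called by edgeR in either genotype, and DESeq2 called Cpt2 lower in TG females (edgeR -0.3 ± 0.11, DESeq2 adjusted p = 0.0465).

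Plin2 had 73.6, 64.6 and 74.6 CPM in TG females, against 102, 102 and 103 CPM in TG males. It had 63.1, 67.7 and 61.3 CPM in WT females, against 100, 94.9 and 81.6 CPM in WT males. It was lower in every female library, with differences of -0.53 ± 0.08 in TG (adjusted p = 0.000585) and -0.53 ± 0.08 in WT (adjusted p = 0.000578). Bdh1 had 252, 226 and 218 CPM in TG females, against 190, 165 and 184 CPM in TG males. It had 287, 204 and 310 CPM in WT females, against 193, 192 and 211 CPM in WT males. The sexes were apart in TG, where edgeR made no call (0.37 ± 0.13, adjusted p = 0.054) and DESeq2 made one (adjusted p = 0.0337). They overlapped in WT, where edgeR called Bdh1 higher (0.42 ± 0.13, adjusted p = 0.0289). Leaving out female replicate 0 or 2 or male replicate 0 or 1 ended the WT call.

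Of the 3 synthetase and thioesterase genes, 0 were called by edgeR in either genotype. An unadjusted p under 0.05 was reached by 1 in each, beside 33.2% of all genes in TG and 33.4% in WT. DESeq2 called 1 in TG. This was Acsl1. It had 442, 359 and 463 CPM in TG females, against 348, 381 and 233 CPM in TG males. It had 340, 363 and 342 CPM in WT females, against 272, 278 and 260 CPM in WT males. The sexes overlapped in TG and not in WT (0.39 ± 0.15 and 0.37 ± 0.15, adjusted p of 0.0731 and 0.0936). Of the regulators, Ppargc1a was called higher in TG females (0.31 ± 0.1, adjusted p = 0.039), a call that ended without any 1 of the 3 TG female libraries or TG male replicate 0 or 1. Ppara had 62.7, 89.4 and 82.4 CPM in TG females, against 64.5, 74.9 and 61.5 CPM in TG males. It had 59.4, 54.5 and 49.9 CPM in WT females, against 65.2, 73 and 71.2 CPM in WT males. The estimates had opposite signs, 0.22 ± 0.12 in TG and -0.35 ± 0.12 in WT, neither called by edgeR (DESeq2 called WT, adjusted p = 0.0218), and the interaction of 0.58 ± 0.17 was not called (adjusted p = 0.418).

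Of the 15 proximal tubule markers, 4 higher and 6 lower were called in TG females and 3 higher and 6 lower in WT females. Their sum was 27100 to 30100 CPM in TG females, 36800 to 42700 CPM in TG males, 24600 to 30400 CPM in WT females and 35200 to 43400 CPM in WT males. All 6 thick limb and distal tubule markers were called higher in TG females and 5 of 6 in WT females. Collecting duct markers were called higher for 3 of 5 tested in TG and 5 of 5 in WT, and glomerulus markers for 3 of 4 in each. Adipocyte markers summed to 76.3 to 192 CPM in TG females, 114 to 501 CPM in TG males, 80 to 458 CPM in WT females and 59.8 to 270 CPM in WT males, with 0 of 10 called in TG and 1 of 10 in WT. WT male replicate 0 held 251 counts of Xist, the female-specific RNA, against 0 to 10 in the other male libraries without surgery. The part of these markers in the member results was not tested.

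Of 21 other peroxisomal genes, 2 higher and 9 lower were called in TG females and 2 higher and 9 lower in WT females. The share of all genes to set beside the sex count of each list was 9.87% higher and 11.3% lower in TG. In WT it was 10.1% higher and 11.3% lower. Amacr, the racemase of branched chains, averaged 91.8 ± 8.14 CPM in TG females and 371 ± 54.4 CPM in TG males (-2.02 ± 0.13), and 90.1 ± 7.28 CPM in WT females and 366 ± 58.8 CPM in WT males (-2.02 ± 0.13). Acox3, a branched-chain oxidase, differed by -1.13 ± 0.1 in TG and -1.17 ± 0.1 in WT, and Acot12, an acetyl-CoA thioesterase, by -1.19 ± 0.11 and -1.46 ± 0.11. Of 16 other mitochondrial genes, 1 higher and 3 lower were called in TG and 1 higher and 5 lower in WT. Acsm3, a medium-chain acyl-CoA synthetase, averaged 9.25 ± 0.887 CPM in TG females and 677 ± 89 CPM in TG males (-6.19 ± 0.15), and 6.86 ± 0.78 CPM in WT females and 615 ± 83.6 CPM in WT males (-6.49 ± 0.15).

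Of 7 ketone body genes, 1 higher and 4 lower were called in TG females and 0 higher and 4 lower in WT females. Acat1, the mitochondrial acetoacetyl-CoA thiolase, averaged 416 ± 21.6 CPM in TG females and 922 ± 39.7 CPM in TG males (-1.15 ± 0.07), and 402 ± 27.2 CPM in WT females and 906 ± 41.5 CPM in WT males (-1.17 ± 0.07). Slc16a1 differed by -1.96 ± 0.22 in TG and -1.24 ± 0.22 in WT, and Bdh2 by -0.39 ± 0.08 and -0.51 ± 0.08. Of 13 uptake genes, 4 higher and 2 lower were called in TG and 7 higher and 2 lower in WT. Cd36 differed by -1.87 ± 0.1 in TG and -1.84 ± 0.1 in WT, against the direction of Slc27a1, a transporter, at 0.8 ± 0.12 in TG, and Acsl3, at 0.71 ± 0.08 in WT.

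Of 11 tested PPAR-alpha targets, 2 higher and 1 lower were called in TG females and 2 higher and 3 lower in WT females. The Cyp4a fatty acid hydroxylases went both ways: Cyp4a14 differed by 3.84 ± 0.5 in TG and 4.27 ± 0.51 in WT, and Cyp4a12a by -5.46 ± 0.46 and -5.94 ± 0.48. These are close paralogs whose reads may have been shared. Of 15 other regulators, 3 higher and 5 lower were called in TG and 0 higher and 4 lower in WT, among them the receptor Rxra (-0.46 ± 0.06 and -0.32 ± 0.06) and the corepressor Ncor1 (-0.48 ± 0.07 and -0.54 ± 0.07). Of 5 pyruvate dehydrogenase kinases and phosphatases, 1 higher and 1 lower were called in TG and 0 higher and 1 lower in WT, with Pdk3 at -0.66 ± 0.1 and -0.69 ± 0.1. Of 14 other droplet genes, 0 higher and 1 lower were called in TG and 3 higher and 1 lower in WT, with the lipase coactivator Abhd5 at -0.75 ± 0.08 and -0.46 ± 0.08.

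The sex and injury comparisons share no library. In WT, 4 members were lower in females than in males and also lower after IRI than after NX (Acads, Cpt1a, Crot and Hadh), which is 50% of the 8 lower in females and 23.5% of the 17 lower after IRI. Over the 18293 genes tested in both tables, 699 were lower in both WT comparisons, 32.6% of those lower in females and 25.8% of those lower after IRI. In TG, 0 of the 8 members lower in females were among the 5 lower after IRI, beside 342 of all genes (15.9% and 13.7%). Plin2 was lower in females and higher after IRI in both genotypes. Acaa1b and Bdh1 in WT and Ppargc1a in TG were higher in females and lower after IRI.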

How the data were processed

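Whole-kidney poly-A RNA was sequenced as paired reads, per the labels' protocols. The submitters' processing notes name fastp 0.23.2, STAR 2.7.0, featureCounts 2.0.3 and GRCm39. The deposited values are counts per gene, not normalised, over Ensembl annotation with an added EGFP entry, per the file headers; the setting for read pairs, strand and multiply mapped reads was not given in the sources used here.

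Counts were tested with edgeR 4.0.16 in R 4.3.3 (limma 3.58.1; TMM factors, filterByExpr, quasi-likelihood test, Benjamini-Hochberg adjustment over all genes tested, threshold 0.05), with DESeq2 1.42.0 as an alternative. IRI over NX and its interaction used all 18 surgery libraries, TG over WT after IRI or NX used the libraries compared, and sex and genotype without surgery used all 12. CPM are counts over the TMM-scaled library size, and SE is the log2 change over the root of F. The surgery and no-surgery tables were normalised separately and no test crossed them. The scripts were tested on simulated counts with known changes. A 1.4-fold change was recovered for 27% of changed genes for injury in WT and 29% for sex in WT. For TG over WT it was recovered for 46% after IRI and 8% after NX. A 2-fold change was recovered for 70% to 85% in these 4 comparisons, so small changes were often missed in the simulations. In them 100 genes were changed at each fold, while 3229 genes were called higher and 2723 lower for injury in WT. The p-value that passes the adjustment depends on how many genes change, so recovery for the members was not measured. Within groups, 48 pairs of libraries had a chi-square per degree of freedom of 20.22 to 220.24, so none was a copy of another.

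The members, pathway lists and markers were chosen with earlier results of these data known. Values in every library are given for up to 2 called members per compartment with the smallest adjusted p in WT for injury and for sex, or the 1 with the smallest p where none was called. 1 further gene of the ketone body list is not reported here and is left out of the list's counts. From each pathway list, genes were named among the 3 with the smallest adjusted p in a comparison. Coordinates are GRCm39 as deposited, and promoter sequences are RefSeq's for GRCm38.p6, matched by symbol for 31 of 35 members.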

Additional observations from a re-analysis of the deposited data

Results flagged for a closer look

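In the 70 groups of 6 libraries tested, 2 members had a library far from the others by Dixon's criterion, which flags about 1 group in 20 by chance. Acaa2, the mitochondrial thiolase, stood at 380 CPM in WT IRI replicate 5, where the next highest WT IRI library had 233 CPM, a gap of 0.69 of the group's range. That library also had the highest red cell marker sum of its group (1300 CPM). Acot1, the cytosolic thioesterase, stood at 78.4 CPM in TG IRI replicate 5, where the next highest TG IRI library had 59.3 CPM, a gap of 0.65 of the range. Neither gene was called for injury with all libraries. Without WT IRI replicate 5, Acaa2 was called lower after IRI in WT (-0.52 ± 0.16, edgeR adjusted p = 0.0197). With all libraries it changed by -0.31 (edgeR adjusted p = 0.293). The fit with the replicate number as a block, which leaves that library out too, also called it lower (-0.63 ± 0.13).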

How the results depend on the processing

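The 49 single-gene calls were each compared with their values under other settings, which gave 712 pairs of a call and a setting. Of these pairs, 616 were unchanged in direction and call, 96 missed the threshold and 0 changed sign. Many settings left out 1 library, so they share most of their data with the main fit. For injury in WT, 17 members were called lower, 11 without WT NX replicate 0 and WT IRI replicates 1 and 5 together, 11 without WT NX replicate 0 and WT IRI replicates 4 and 5 (both sets chosen after seeing the data) and 11 to 17 with each library left out in turn, the lowest without WT NX replicate 0. For injury in TG, 5 were lower, and 4 to 5 with each library left out. For sex, 3 members were higher in WT females, 5 with no filter on low counts, 5 in a fit of the compared groups only and 1 to 4 with each library left out, the lowest without WT female replicate 0. In TG females 2 were higher, 4 with no filter, 4 in DESeq2 and 1 to 3 with each library left out, the lowest without TG female replicate 2 or TG male replicate 0. Comparisons with 0 members higher in edgeR gave 2 in DESeq2 for the interaction of genotype with injury (Acads and Plin2), 1 in DESeq2 for TG over WT after IRI (Plin2), and 1 in DESeq2 and 1 with no filter for TG over WT females (Ppara). After NX, 0 were lower in TG and 1 with no filter (Pdk4, -1.56, adjusted p = 0.0082). The cause of these shifts was not tested, beyond the fewer libraries or other genes tested that each setting brings. The share of all genes called was not taken under these settings.

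The labels give the groups shared replicate numbers. Deviations of same-numbered libraries correlated at -0.03 to 0.27, and in no pair of groups was every correlation over 0.1, so the numbers were read as names. Without surgery, the replicate 0 libraries correlated at 0.13 to 0.27 over all pairs of groups, and the replicate 2 libraries at 0.02 to 0.06. Whether the replicate 0 libraries share a feature was not tested. A fit with the replicate number as a block held only the compared groups and the numbers they share. It thus left out the other genotype and, for injury, IRI replicates 3, 4 and 5. In it 8 members were lower after injury in WT, 3 in TG, and 7 were higher in WT females. The block and the fewer libraries cannot be told apart in these counts, and the share of all genes called in this fit is not given. Counting error is small at these depths, and the 3 libraries in most groups limit what could be called.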
